A study of Mus musculus with 2 samples.

Results

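Extracellular ATP and adenosine act on macrophages and osteoclast precursors through a loop of channels, receptors and enzymes, and 10 genes of that loop were followed here in RAW264.7 cells, which are mouse macrophages of an established line able to form osteoclasts. They were chosen by known roles in ATP release and breakdown, adenosine uptake and removal, and sensing of ATP, UDP or adenosine. The choice was made out of 18193 genes that the arrays name. Earlier results of these data were known when the 10 genes were chosen. Of these 10 genes, 8 have at least 1 probe set that the platform annotation gives to that gene alone. The adenosine receptors *Adora2a* and *Adora2b* have none in the annotation used and were not analysed here. The cells were transfected with scramble siRNA or with *Flcn* targeted siRNA, moved to MEM with 10% FCS after 24 hours, and harvested another 48 hours later. Each condition was measured once, on 1 Affymetrix whole-genome mouse array and, per the study's methods, with 1 siRNA sequence against *Flcn*. Replicates are thus missing and no difference was tested, and an effect of the siRNA cannot be told apart from any other difference between the 2 arrays.

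In this loop, ATP leaves the cell through hemichannels such as pannexin 1 and opens P2X ion channels or binds P2Y receptors on the same or neighbouring cells. CD39 and CD73 on the cell surface then remove its phosphates stepwise until adenosine is left, which binds G protein-coupled receptors that raise or lower cAMP. Adenosine is cleared by uptake through equilibrative nucleoside transporters and by deamination to inosine. The study asked whether loss of *Flcn*, which encodes folliculin and holds the transcription factor Tfe3 out of the nucleus, alters this loop in osteoclast precursors. Its qRT-PCR of loop genes used cells given RANKL, the cytokine that drives osteoclast formation, whereas no source for the arrays states that RANKL was given. In that qRT-PCR the study reported higher RNA of *P2rx7*, *Panx1*, CD39, CD73, ENT1 and *Adora2a* after *Flcn* knockdown.

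Of the 8 genes measured, 7 passed the signal filter described below, and 1 of these differed by 1.5-fold or more between the arrays. *Slc29a1*, which encodes the nucleoside transporter ENT1, had a signal of 192.2 with scramble siRNA and 304.1 with *Flcn* siRNA, which is 1.58-fold higher. *Panx1*, *P2rx7*, *P2rx4*, *P2ry6* and *Ada* had nearly the same signal on both arrays, differing by at most 1.06-fold at the brightest probe set. *Entpd1*, which encodes CD39, had a weak signal that was 1.34-fold lower, and *Nt5e*, which encodes CD73, did not pass the filter, with a signal under the array median with scramble siRNA and slightly over it with *Flcn* siRNA. Signals are the deposited linear values of the Affymetrix software GCOS. The array medians were 12.8 for scramble siRNA and 13.6 for *Flcn* siRNA. Signals below them were set to the median in ratios, and a gene passed the signal filter where the geometric mean of its 2 signals was at least 13.2. Where a gene has several probe sets, its value is that of the brightest one by this mean.

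Of the 10285 genes above the filter on the whole array, 5.85% had a signal at least 1.5-fold higher with *Flcn* siRNA and 5.52% had one at least 1.5-fold lower. Of the 7 members above the filter, 1 was higher and 0 were lower, and their median log2 ratio was -0.0088 beside 0.013 over all genes. The 1 in 7 is a single gene, and nothing is read from that share about the set. With the arrays scaled to equal medians, the higher genes made up 34.1% of all genes past 1.5-fold, in place of 51.5%.

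*Flcn* itself, the siRNA target, had signals of 240.9 and 206.2 at its brightest probe set and 208.6 and 145.4 at the next, in each case with scramble siRNA first. Both were lower with *Flcn* siRNA, by 1.17-fold and 1.43-fold, and its other probe set was too dim for a ratio. By qRT-PCR of RAW264.7 cells given the siRNA, the study reported a knockdown of *Flcn* and higher *Gpnmb*, its readout of *Flcn* loss. Of 8 macrophage markers, 7 were above the filter, among them *Csf1r*, *Cd68* and *Adgre1*, whose log2 ratios were -0.015, 0.095 and -0.15. None of 9 measured T and B cell markers was above it. Of 5 fibroblast markers 1 was, *Col1a2* with 18.3 and 12.7, and of 5 epithelial markers 1 was, *Epcam* with 14.8 and 12.7. Both signals with *Flcn* siRNA lay under the array median. Of all 18193 genes, 10285 were above the filter. The macrophage Fc receptor *Fcgr1* had 1033 with scramble siRNA and 380.1 with *Flcn* siRNA, and the osteoclast protease *Ctsk* had 17.2 and 58.4. Summed over the list, the osteoclast markers had a signal of 198.7 and 274.5, with *Oscar*, *Calcr* and *Mmp9* under the median on both arrays. The others were *Acp5* with 90.8 and 115.6, *Dcstamp* with 51.0 and 56.4 and *Ocstamp* with 24.0 and 24.6. All 4 osteoclast markers above the filter lay above 0, beside 51.7% of all genes above it, and *Ctsk* was the only 1 past 1.5-fold. The 3 under the median have no ratio, so the sum does not show whether a rise is shared by the whole list. The part of such differences in the values of the loop genes was not tested. In RNA of a whole culture, fewer cells that express a gene and less of its RNA per cell cannot be told apart.

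**Figure D1:**
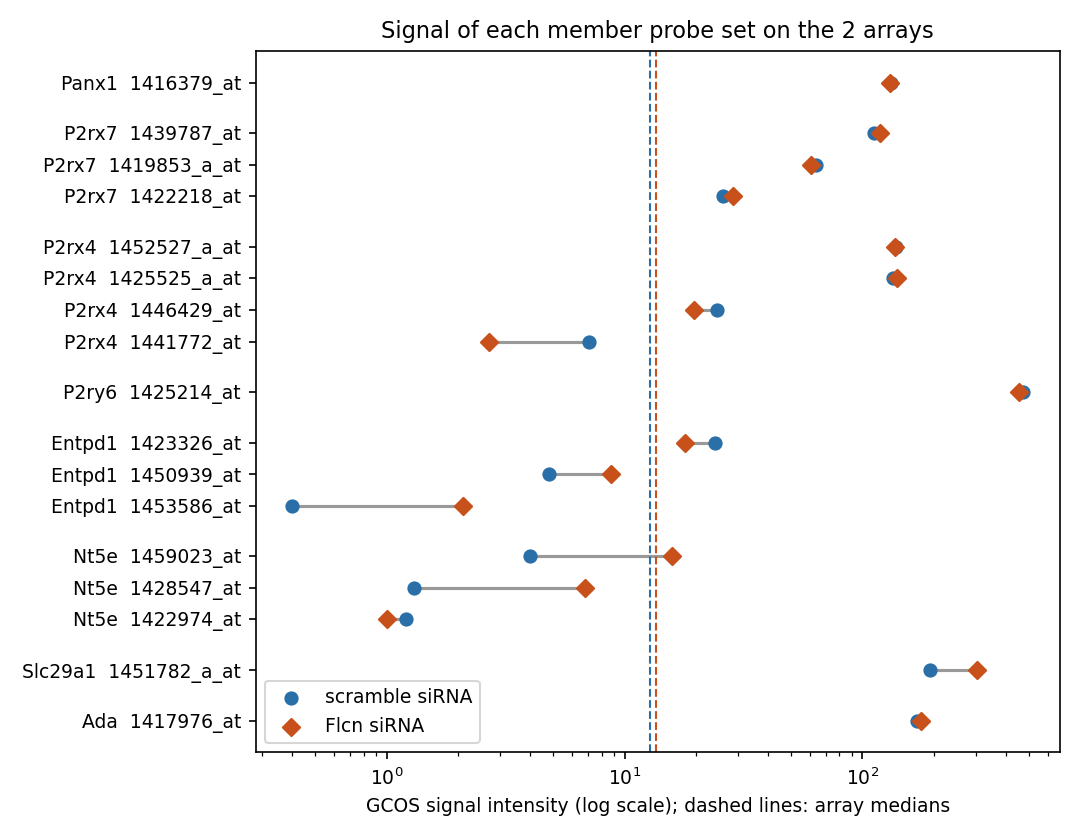
Signal of each probe set of the 8 measured genes, on a log scale, with scramble siRNA (circles) and *Flcn* siRNA (diamonds), 1 array per condition, and grey lines joining the 2 signals of a probe set. The points of *Slc29a1* stand apart at 192.2 and 304.1, those of *Panx1*, *P2rx7*, *P2ry6* and *Ada* nearly coincide, and the widest lines belong to probe sets with a point to the left of the dashed array medians.

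The sequences in front of *Slc29a1* are shown because it was the gene of the loop that passed 1.5-fold, and because factors of the Tfe3 family bind E-boxes with the core CACGTG. Promoter windows of 300 bases, from 250 before to 50 after an annotated start, were taken from RefSeq (GRCm38.p6). Of the 10 genes, 8 have such windows, 17 in all, and 8 of the 17 belong to *Slc29a1*, which has many annotated starts. *P2ry6* and *Adora2a* have none in the table used. The core CACGTG, which reads the same on both strands, is in 1 of the 17 windows, and it is in 7.15% of the 32851 windows of all genes. That window lies at chr17:45595197-45595496 on the minus strand, and its E-box, in capitals, begins 75 bases before the start. The window of the most upstream start, at chr17:45599569-45599868 on the same strand, holds no CACGTG and is in lower case throughout.
Slc29a1 window with the E-box: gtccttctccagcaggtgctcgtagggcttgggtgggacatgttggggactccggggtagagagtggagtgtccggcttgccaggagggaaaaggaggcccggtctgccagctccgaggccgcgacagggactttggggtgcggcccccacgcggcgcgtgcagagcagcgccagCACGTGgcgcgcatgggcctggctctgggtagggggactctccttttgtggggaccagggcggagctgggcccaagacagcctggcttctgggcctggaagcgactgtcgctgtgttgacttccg
Slc29a1 window of the most upstream start: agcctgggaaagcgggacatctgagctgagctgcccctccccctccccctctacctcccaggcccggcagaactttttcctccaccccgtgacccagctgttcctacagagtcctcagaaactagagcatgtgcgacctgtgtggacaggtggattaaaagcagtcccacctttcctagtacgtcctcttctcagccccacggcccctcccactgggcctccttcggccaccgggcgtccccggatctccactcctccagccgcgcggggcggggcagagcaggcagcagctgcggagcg

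Another pair of motifs was searched on both strands. The M-box TCATGTG, another site of this family of factors, is in 3.77% of all windows, and the cAMP response element TGACGTCA, which CREB binds, is in 1.79%. Neither is in a window of the 10 genes, which says only that these letters do not stand there. Whether the start with the E-box is used in RAW264.7 cells was not measured, since the only probe set of *Slc29a1* is shared by transcripts of the gene. With 8 windows a gene also has more room for a match, and of the 14 genes with 8 or more windows 2 hold CACGTG.

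Release of ATP was represented by *Panx1*, the hemichannel through which P2X7 activation lets ATP out. Its signal was 131.4 with scramble siRNA and 130.6 with *Flcn* siRNA, a log2 ratio of -0.0088. By size of the ratio it lay in the middle of the arrays, as number 5461 from the top of 10285 genes.

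Among the receptors, *P2rx7* encodes a channel that opens at high ATP and is known for its part in the fusion of osteoclast precursors and in inflammasome activation. Its brightest probe set had a signal of 111.9 with scramble siRNA and 118.7 with *Flcn* siRNA. The others had 63.9 and 60.5, and 25.9 and 28.5. The log2 ratios were 0.085, -0.079 and 0.14, so that the *P2rx7* probe sets lay on both sides of 0 and none came near 1.5-fold. Their SD was 0.11, beside a median SD of 0.19 between probe sets of 1 gene over 5034 genes. This is a spread between probe sets on the same arrays. It does not measure spread between arrays and is no replicate error.

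*P2rx4*, which encodes a P2X channel that responds to lower ATP and is abundant in macrophage lysosomes, is the direct neighbour of *P2rx7* on chromosome 5. Its 2 brightest probe sets had signals of 138.1 and 136.5, and of 134.9 and 139.4, with scramble siRNA first. They differed from each other by less than 0.1 in log2 ratio, at -0.017 and 0.047. A weaker probe set had 24.5 and 19.6, a log2 ratio of -0.32, and the fourth lay under the median on both arrays, at 7.1 and 2.7. *P2ry6*, the receptor for UDP that couples to phospholipase C, had a signal of 473.9 with scramble siRNA and 456.4 with *Flcn* siRNA at its only probe set, a log2 ratio of -0.054. The 3 receptor genes of the loop had no difference of 1.5-fold at any of their 7 probe sets above the filter. Probe sets of 1 gene share the RNA and are no replicates. Over all genes above the filter, 5.85% were higher and 5.52% lower by that much, so nothing is read from this about the receptors.

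The enzymes that break down ATP outside the cell gave weak signals. *Entpd1*, which encodes CD39 and removes phosphates from ATP and ADP, had 23.9 with scramble siRNA and 17.9 with *Flcn* siRNA at its brightest probe set, a log2 ratio of -0.42. Its other probe sets lay under both medians and gave no ratio, with 4.8 and 8.8 at one and 0.4 and 2.1 at the other. The direction of *Entpd1* thus rests on 1 probe set near the median. Among the 2184 genes with a geometric mean signal from 13.2 to 50, 24.5% were past 1.5-fold in either direction, beside 5.93% of the 4472 genes at 200 or more.

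*Nt5e* encodes CD73, the enzyme that makes adenosine from AMP. With scramble siRNA its 3 probe sets had signals of 4.0, 1.3 and 1.2, all under the median of 12.8. With *Flcn* siRNA they had 15.8, 6.8 and 1.0, of which the first lay above the median of 13.6. That probe set was at least 1.23-fold higher, but its geometric mean of 7.95 was under the filter. No ratio was taken at the other probe sets, and the arrays give no order between the conditions there.

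Clearance of adenosine was covered by its transporter and by its deaminase, the former with the largest ratio among the 7 members above the filter. The only probe set of *Slc29a1* had the signals of 192.2 and 304.1 given above, a log2 ratio of 0.66, at number 439 from the top of 10285 genes. Its geometric mean signal was 242, and among the 4472 genes with a geometric mean of 200 or more 2.28% were higher by 1.5-fold or more. As the gene has no other probe set that names it alone, agreement between probe sets could not be checked. With the arrays scaled to equal medians the ratio was 1.49-fold, just under the limit, and the gene is not measured when only probe sets unique to 1 transcript are used. *Ada*, which turns adenosine into inosine, had 170.2 with scramble siRNA and 175.9 with *Flcn* siRNA at its only probe set, a log2 ratio of 0.048.

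**Figure D2:**
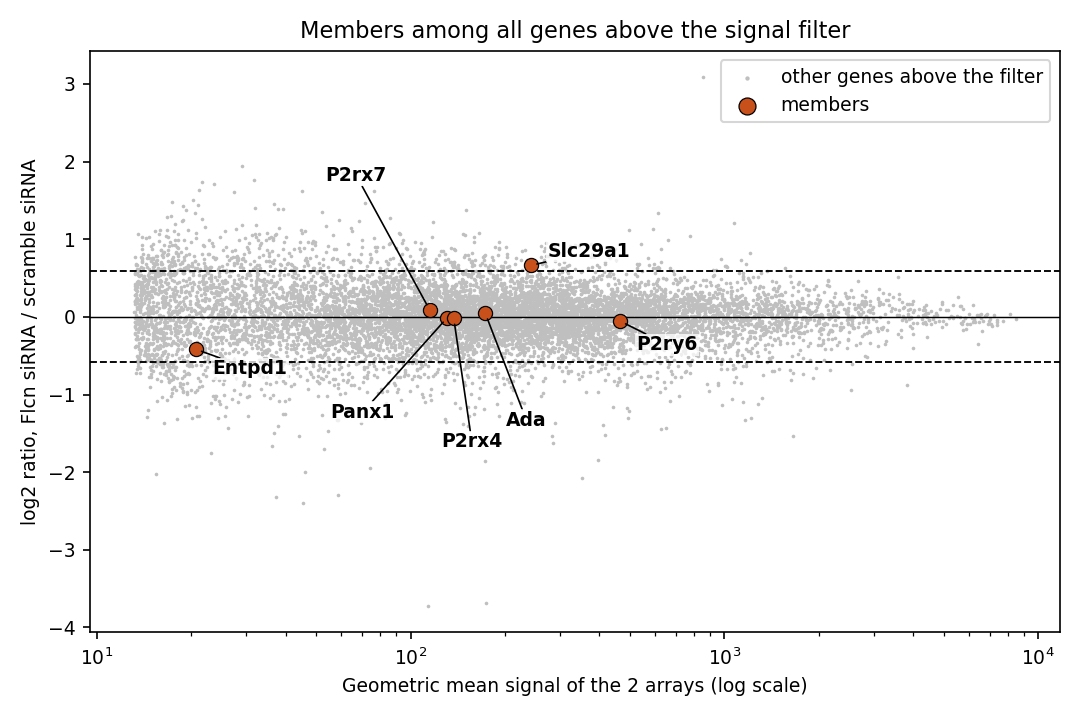
Log2 ratio, *Flcn* siRNA over scramble siRNA, against the geometric mean signal (log scale) for the 10285 genes above the filter (grey) and for the 7 members above it (orange, with names), with dashed lines at 1.5-fold. *Slc29a1* lies just above the upper line at 0.66, *Entpd1* lies at -0.42 among weak signals where the grey points spread widest, and the other members lie close to 0.

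The wider set of purinergic genes was taken from 8 lists of known function. Beside the members these name 79 genes, of which 68 have a probe set and 42 passed the filter. Of the 42 genes, 16 lay above 0 and 26 below, with a median log2 ratio of -0.13, beside 0.013 over all genes. Of all genes above the filter, 51.7% lay above 0, which is the share to set beside the counts above and below 0 in each list below. For the counts of measured genes above the filter, it is 10285 of the 18193 genes on the arrays. The lean of a list to 1 side was not tested. Past 1.5-fold were 1 gene higher, *Gja1*, and 1 gene lower, *Entpd5*, beside 5.85% and 5.52% of all genes above the filter.

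Most purinergic receptors gave little signal in these cells. Of 7 P2X genes 2 were above the filter, *P2rx4* and *P2rx7*, and of 8 P2Y genes 1 was, *P2ry6*, beside 10285 of all 18193 genes. The ADP receptors *P2ry12* and *P2ry13*, known from microglia and other myeloid cells, had signals of 5.6 and 4.5, and of 9.3 and 9.4, all under the medians. *P2ry2*, the receptor for ATP and UTP that lies next to *P2ry6* on chromosome 7, had 1.5 and 10.0 and was under the median on both arrays. The adenosine receptor *Adora3* had 1.3 and 5.9 at the brighter of its probe sets. These 4 receptors were picked as examples after their values were seen. They gave weak signals, and with no detection calls in the table they do not show that a receptor is absent.

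Among ATP release routes, 8 of 13 measured genes were above the filter, 3 above 0 and 5 below, with a median log2 ratio of -0.062. *Gja1*, which encodes the gap junction protein connexin 43, had 10.8 with scramble siRNA and 29.3 with *Flcn* siRNA and was at least 2.29-fold higher. It had signals of 10.0 and 29.0, 6.9 and 36.0, and 10.0 and 19.5 at the next probe sets, and 5.4 and 12.1, and 10.5 and 4.0, at the last pair, which lay under both medians. Every *Gja1* signal with scramble siRNA lay under the median, so that a probe set of this gene passed the filter only where its signal with *Flcn* siRNA was high, and the probe sets that passed are no check of each other. *Slc17a9*, the transporter that loads ATP into vesicles, was the lowest of the list, with 74.8 and 54.4 at one probe set, a log2 ratio of -0.46, and 44.0 and 43.4 at the other. *Lrrc8d*, a subunit of volume-regulated anion channels, had 194.9 and 267.4 at its brightest probe set, a log2 ratio of 0.46, the next highest of the list. Its other probe set had 158.1 and 181.2, a log2 ratio of 0.20. This gene was named after its values were seen.

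Of the ectonucleotidase list, 7 of 12 measured genes were above the filter, 2 above 0 and 5 below, with a median log2 ratio of -0.23. *Entpd5*, whose enzyme acts on UDP and GDP in the endoplasmic reticulum rather than at the cell surface, had 124.0 and 82.6 at its brightest probe set, a log2 ratio of -0.59. Its probe sets above the filter ranged from -0.89 to 0.16, with 4 of 5 below 0. *Entpd7*, an intracellular relative, had 123.2 and 99.1 at the probe set used, a log2 ratio of -0.31, but -0.93 and -1.01 at the next. *Bst1*, an ectoenzyme that uses NAD, had -0.23 and -0.74. The last pair of genes was named after their values were seen, because their probe sets disagree in size. The highest of the list was *Entpd2*, an ecto-ATPase, with 13.5 and 19.8, close to the median.

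Of 5 measured nucleoside transporters 4 were above the filter, and *Slc29a1* was the only 1 of these past 1.5-fold with the processing used here. *Slc29a2*, which encodes ENT2, the closest relative of ENT1 in function, had 19.9 with scramble siRNA and 12.8 with *Flcn* siRNA and was at least 1.46-fold lower. It was past 1.5-fold lower with no floor, with a floor at the 25th percentile, with quantile normalization and with the arrays scaled to equal medians. With equal medians *Slc29a1*, at 1.49-fold, was not past the limit. The lysosomal transporter *Slc29a3* had 101.8 and 108.8 at the brighter probe set and 34.4 and 16.5 at the other, log2 ratios of 0.096 and -1.06. *Slc29a4* had 40.4 and 47.6, and this last pair was named after the values were seen. The family thus shared no direction on these arrays, and the difference between *Slc29a1* and its relatives was not tested.

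Of 14 genes above the filter for enzymes that handle adenosine and AMP, 6 lay above 0 and 8 below, with a median log2 ratio of -0.039. Past 1.5-fold were 0, beside 5.85% higher and 5.52% lower of all genes above the filter. *Ampd2*, which deaminates AMP to IMP, was the lowest, with 1699 and 1186 at one probe set and 493.3 and 343.4 at the other, log2 ratios of -0.52 at both. *Pnp*, which splits inosine in the step after *Ada*, was the highest, with 580.2 and 698.1, a log2 ratio of 0.27. *Adk*, which returns adenosine to AMP and so removes it after uptake, had 1039 and 1166 at its brightest probe set, a log2 ratio of 0.17, and was named after its values were seen.

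The genes that couple these receptors to cAMP and calcium were all measured, and 13 of 13 passed the filter. Of these 4 lay above 0 and 9 below, with a median log2 ratio of -0.20. Past 1.5-fold were 0, beside 5.85% higher and 5.52% lower of all genes above the filter. *Gnas*, the stimulatory G protein subunit through which A2 receptors act, had 1173 with scramble siRNA and 1000.4 with *Flcn* siRNA, and was named after its values were seen. *Plcb2*, a phospholipase C, was the lowest with 40.1 and 29.3, a log2 ratio of -0.45. *Prkar1a*, a regulatory subunit of protein kinase A, was the highest at 0.24, but had -0.29 at its next probe set.

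**Figure D3:**
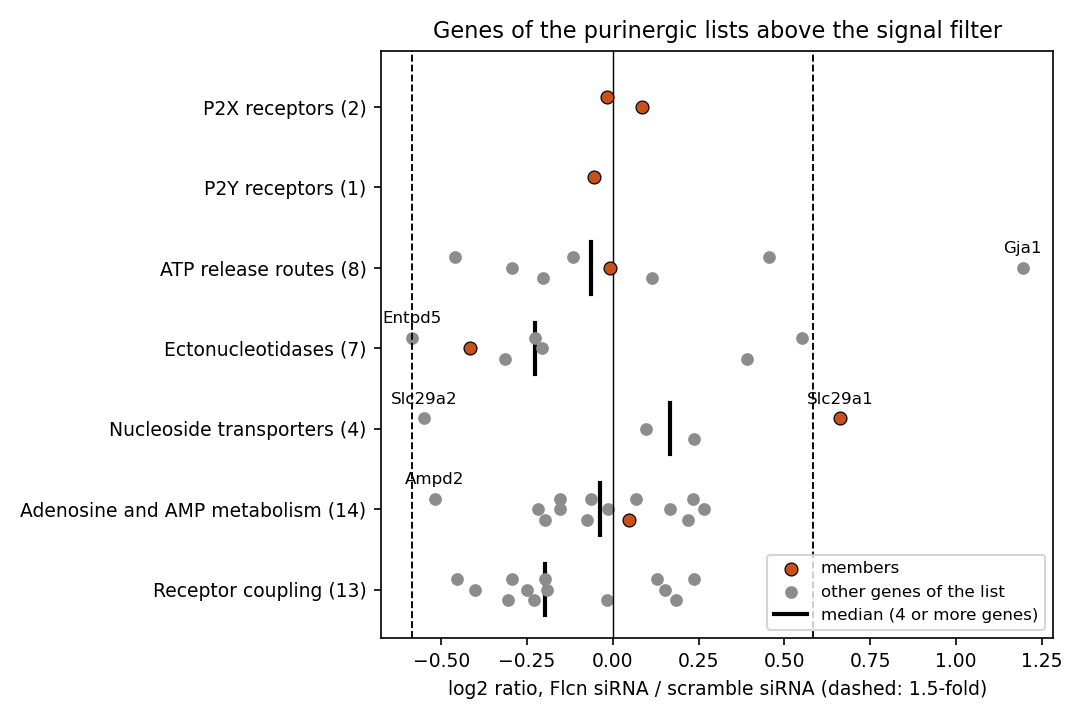
Log2 ratio, *Flcn* siRNA over scramble siRNA, of each gene above the filter in 7 purinergic lists, with the number of genes in parentheses, members in orange, other genes in grey, black bars for medians and dashed lines at 1.5-fold. *Gja1* and *Slc29a1* lie to the right of the upper line and *Entpd5* on the lower, and most other points lie between them. The list of adenosine receptors has no gene above the filter and is not drawn.

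The ratios were computed again under other ways of processing. Over the alternatives that give the gene a value, which are 9 for *Slc29a1* and *Entpd1* and 10 for the others, the log2 ratio of *Slc29a1* ran from 0.57 to 0.67, that of *Panx1* from -0.096 to -0.0079, that of *P2ry6* from -0.14 to -0.045 and that of *Entpd1* from -0.50 to -0.24. *P2rx7* and *Ada*, slightly above 0 as given here, were at -0.0024 and -0.040 with the arrays scaled to equal medians. *P2rx4* was at -0.32 when only probe sets unique to 1 transcript were used, which leaves its weaker probe sets.

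**Figure D4:**
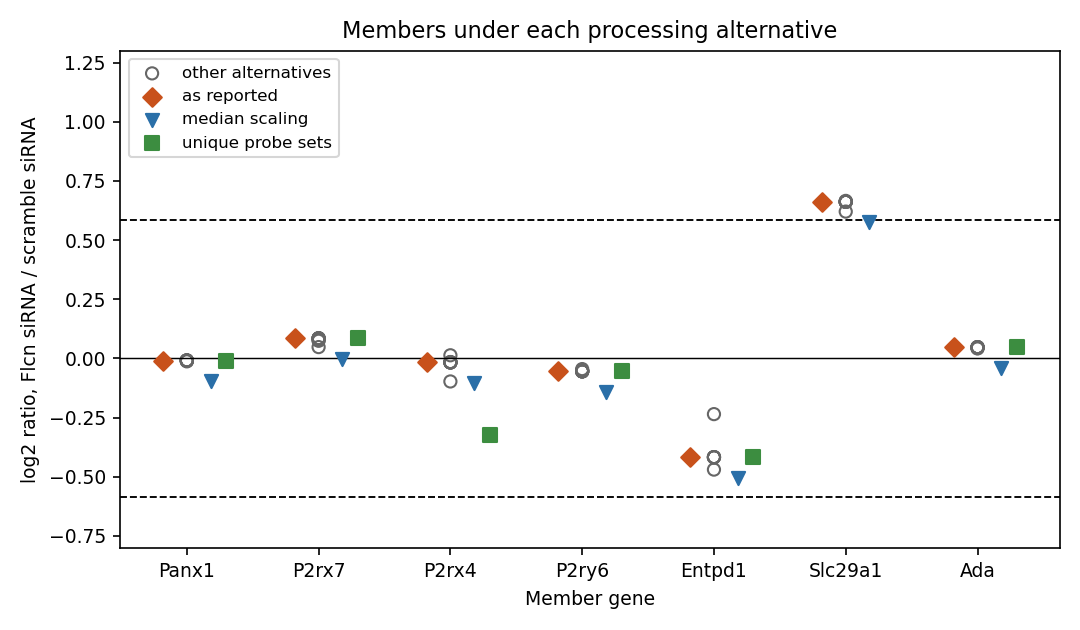
Log2 ratio, *Flcn* siRNA over scramble siRNA, of the 7 members above the filter as reported (diamonds) and under each of 10 processing alternatives that gives a value (triangles for arrays scaled to equal medians, squares for probe sets unique to 1 transcript, circles for the rest), with dashed lines at 1.5-fold. *Slc29a1* stays between 0.57 and 0.67, with the triangle just under the line, and no other member reaches a line.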

How the data were processed

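RNA of RAW264.7 cells with scramble or *Flcn* siRNA was measured on 1 Affymetrix array each. The authors made 1 linear signal intensity per probe set with GCOS, and these deposited intensities have no detection calls. How GCOS was set to scale them is not given in the sources used here. Without the highest and lowest 2% of values, each array has a mean of 100. Of 45101 probe sets, 34945 name 1 gene in the platform annotation, with symbols updated through RefSeq. Controls and probe sets with several genes (932) or none listed (9211) were left out. Log2 ratios, the floor and the filter were computed from the signals as the report describes. Calls rest on the size of the ratio, at 1.5-fold, with no p-value. Having 1 array per condition limits the precision. The genes named are the members, *Flcn*, list genes past 1.5-fold and the highest and lowest of each list, apart from marker genes and those marked as chosen after their values were seen. The members and lists were chosen with earlier results of these data known. Alternatives changed the scaling, floor, offset, probe sets, filter or fold, and a ratio counted as moved past a shift of 0.19, the median SD among probe sets of a gene. Functions were tested on simulated data. Python 3.11.15, numpy 2.4.6, pandas 2.3.3 and matplotlib 3.10.9 were used.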

Additional observations from a re-analysis of the deposited data

How the results depend on the processing

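Of 68 log2 ratios of single members under the alternatives, 67 moved by less than the median SD between probe sets, and that of *P2rx4* moved to -0.32 with only probe sets unique to 1 transcript. Many of the 68 could not move. A lower floor or another filter leaves the ratio of signals above the medians unchanged, as does the choice of probe sets for a gene with 1. The count is therefore no measure of how robust the ratios are. In place of 1 member past 1.5-fold upward there were 0 with the arrays scaled to equal medians, which put *Slc29a1* at 1.49-fold. Of all genes above the filter, 4.06% were then higher. There were also 0 members, beside 6.18% of all genes, when probe sets had to be unique to 1 transcript, which leaves out that of *Slc29a1*. At a limit of 2-fold the number was 0 as well, beside 0.846% of all genes. At 1.3-fold 1 member, *Entpd1*, was lower, beside 12.3% of all genes. Among the other purinergic genes the number higher was 0 with a filter at the 75th percentile, which leaves out *Gja1*, beside 3.14% of all genes. At 1.3-fold it was 4, beside 13.5%. The number lower was 3 with equal medians (*Ampd2*, *Entpd5* and *Slc29a2*), beside 7.85% of all genes. It was 2 (*Entpd5* and *Slc29a2*) with quantile normalization, with no floor and with a floor at the 25th percentile, beside 5.95%, 6.02% and 6.02%. With an offset of 16 in place of a floor it was 0, beside 3.42%. At 1.3-fold it was 6, beside 12.3%, and at 2-fold 0, beside 1.10%. With the mean of all probe sets it was 1 as before, beside 4.76%, but the gene was *Entpd7* and *Entpd5* was no longer past 1.5-fold. The shares over all genes shift with the setting too, and nothing is read from these counts about the purinergic genes. The median of the members ran from -0.096 to 0.019 and that of the other purinergic genes from -0.22 to -0.070. No paired analysis was possible because each condition has 1 array. Signals near the array median limit *Entpd1*, *Nt5e* and *Gja1*.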
